A study of Mus musculus with 6 samples.

Results

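Immediate early genes and heat shock genes were examined as 2 groups of rapidly inducible genes in S-phase cells of the embryonic mouse cortex. The set was a named list of 31 symbols, 23 immediate early genes and 8 heat shock genes, and a probe of the array was assigned to a gene when its accession matched the RefSeq record of that symbol. Of the 31 genes, 30 had a matched probe, out of 19988 named genes on the array, and together they were read by 36 probes. A matched probe for Hspa1b was not found. The list was not drawn from values of these arrays by its rule, although it was put together with earlier results of these data known.

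Immediate early genes are switched on within minutes of a growth factor, an activity signal or a stress, from transcription factors already present in the cell, and most encode short-lived transcription factors of the AP-1, Egr, Nr4a and Klf families or inhibitors that end the response. Heat shock genes encode chaperones that keep proteins folded. Their stress-inducible members are driven by heat shock factor 1, while others are made at high levels in every cell. In cortical progenitors AP-1 and Egr factors are known as read-outs of growth factor signalling, and both gene groups are also known to respond to the warming and enzyme treatment used to take tissues apart.

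All embryos were C57BL/6 mice at embryonic day 14.5 that carried 1 Tis21-GFP knock-in allele, so the GFP-negative cells had the same genotype as the GFP-positive cells. Tis21 (Btg2) is an antiproliferative gene that progenitors turn on when they commit to making neurons, and GFP from its locus therefore separates progenitors that have made this switch from those that have not. Dorsal telencephalon was digested with trypsin for 20 min at 37 °C, the single cells were held with a DNA dye for 1 hour at 37 °C, and cells with a DNA content between unreplicated and fully replicated were sorted by GFP. Both groups went through the same digestion, dye incubation and sort, per the labels. For a replicate, 15 embryos (30 hemispheres) were pooled to yield roughly 200000 sorted cells per group, and the authors kept 3 of their 4 experiments. The 6 samples were read on 6 one-colour Agilent arrays of 1 slide. The comparison asks how S-phase progenitors that express Tis21 differ in gene expression from those that do not.

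On each array 28520 to 31277 of 55681 probes were well above background, with 0 saturated spots, and arrays correlated at 0.983 to 0.992 within a group and at 0.954 to 0.972 between groups. Levels below are scaled log2 intensities, on which 0 is the 75th percentile of the array, so 1 unit is a 2-fold difference. Differences are Tis21-GFP positive minus negative. Limma tests were adjusted by Benjamini-Hochberg over all 13140 genes whose probe cleared the scanner's background test (well above background) in a whole group of 3 arrays, positive or negative. A gene is called at an adjusted p under 0.05. Of 10 tested intermediate progenitor markers 10 were called higher in the GFP-positive cells, and of 13 tested radial glia markers 11 were called lower. Among all genes tested 12.8% were called higher and 13.1% lower. The radial glia markers Prom1 (0.36) and Pax6 (0.016) were not called. The marker lists were chosen with earlier results of these data known, so these counts are no independent check of the sort. Btg2 itself, whose locus carries GFP, was 0.77 ± 0.17 (SE) higher with a limma adjusted p of 0.0139. It is 1 of the 10 intermediate progenitor markers and is not independent of the sort.

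Of the 23 immediate early genes, 21 passed the filter. Of these, 11 were lower in Tis21-GFP positive cells, 1 was higher and 9 were not called. With the replicate number as a block, 14 were lower and 1 was higher. Of all 13140 genes tested, 13.1% were called lower and 12.8% higher. The median difference of the 21 genes was -0.92, against 0.12 over all genes tested, and within the same-numbered pairs it was -0.68, -0.97 and -0.80. Of the 21 genes 8 were called with a fitted difference of at least 2-fold lower, against 7.5% of all genes tested. For 1 of the 8, Nr4a3, the positive samples give only a bound, of 1.74-fold. Of the 21 genes, 15 were lower in all 3 pairs, against 25% of all genes, and in 11 the groups did not overlap with the positive samples lower, against 18.6% of all genes. Of the 8 heat shock genes 7 passed the filter, 2 were lower, 0 were higher by limma (1 at an unadjusted p under 0.05) and 5 were not called, and the median difference was -0.0013. With the replicate block 2 were lower and 1 was higher. The difference between the 2 gene groups was not tested. A gene that passed the filter because it was bright in 1 group only could be called more easily than one that was bright in both, and Junb and Nr4a3 were such genes.

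**Figure D1:**
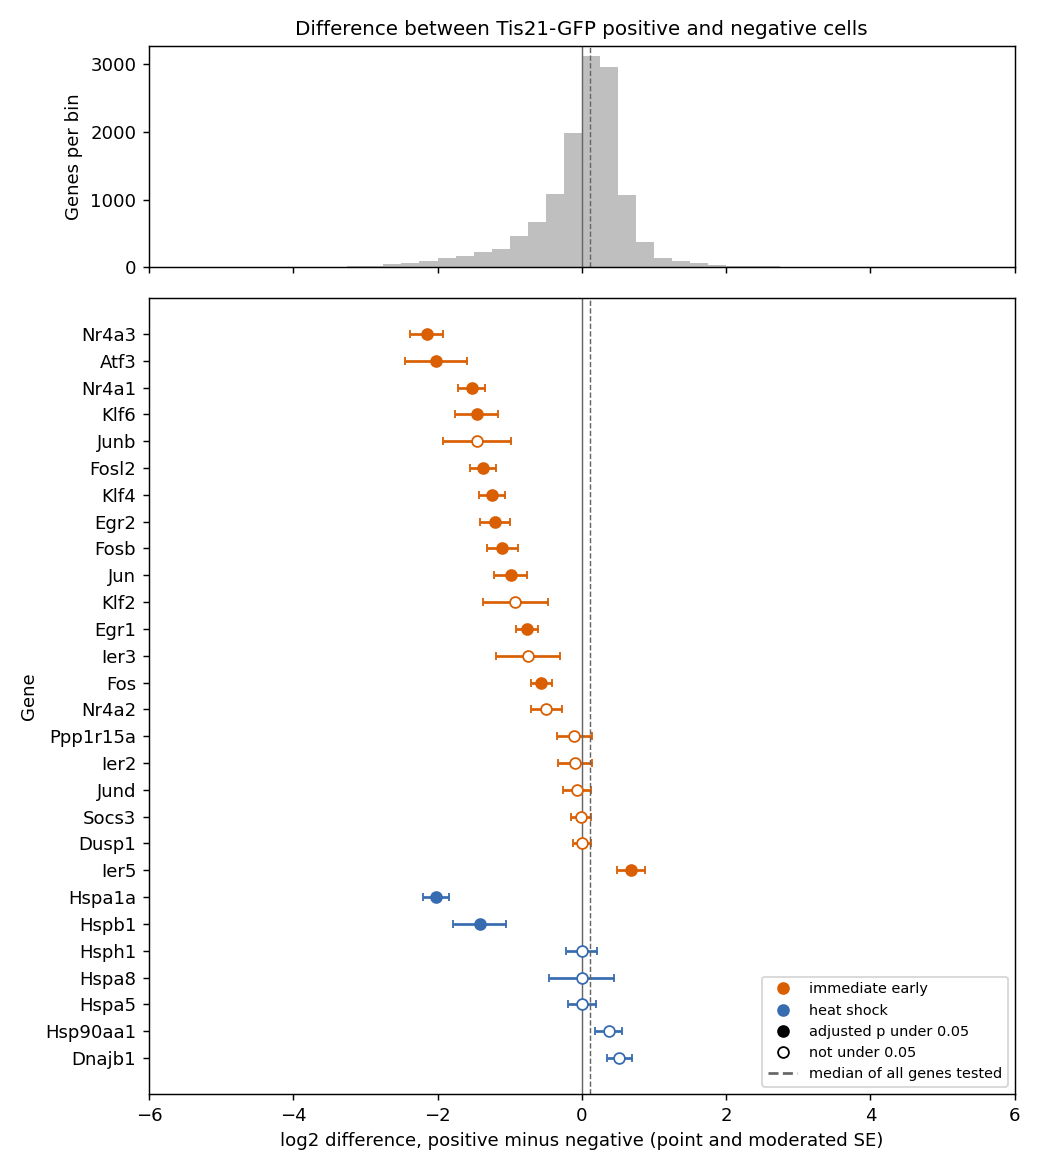
Upper panel: number of genes per bin of log2 difference (x axis, positive minus negative, bins of 0.25 log2 units) for the 13140 genes tested. Lower panel: the 28 tested immediate early (orange) and heat shock (blue) genes, as point and moderated SE on the same x axis, filled where the adjusted p was under 0.05, with the median of all genes (0.12) dashed. Of the orange points 15 sit below -0.4, while 5 of the 7 blue points sit at or above -0.01.

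The AP-1 family was lower in 5 of its 7 genes. These proteins bind DNA as pairs, a Fos-type or Atf partner with a Jun partner, and drive genes of proliferation, migration and stress. Fos, the founding immediate early gene, read 3.18, 3.31 and 3.07 in the 3 GFP-positive samples and 3.80, 3.86 and 3.58 in the GFP-negative samples. Every negative sample lay above every positive one, and Fos fell by 0.56 ± 0.14 (SE, n = 3 per group, limma adjusted p = 0.0228), a 1.47-fold difference. It was the smallest of the 11 decreases, and its call was lost without negative replicate 1 (adjusted p = 0.0869), negative replicate 2 (0.0706), positive replicate 1 (0.0651) or positive replicate 3 (0.0528).

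Fosb, a Fos paralogue induced strongly in neurons, read 2.29, 2.46 and 1.83 in positive samples and 3.50, 3.44 and 2.96 in negative samples. The groups were apart, with a difference of -1.10 ± 0.22 (2.15-fold lower in positive cells, limma adjusted p = 0.00816), with the third replicate the lowest of each group. Fosl2, which encodes the Fos-related factor Fra-2, read -0.83, -0.92 and -1.13 against 0.32, 0.17 and 0.73. It did not overlap between groups and was 2.58-fold lower (difference -1.37 ± 0.18, limma adjusted p = 0.0013). A second Fosl2 probe was not well above background on any array and gave no level.

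Jun, the principal Jun partner and a target of stress kinases, read 4.87, 4.45 and 4.61 in positive and 5.34, 6.13 and 5.42 in negative samples. All 3 negative samples were higher, the second most of all, and the difference was -0.98 ± 0.23 (limma adjusted p = 0.0173). Without positive replicate 2 it was -0.89 and no longer called (limma adjusted p = 0.0516). Atf3, a stress-induced repressor that pairs with Jun, showed the largest difference of the family, with -0.05, 0.66 and -0.82 against 1.77, 2.71 and 1.38. Its levels spread widely within both groups but did not overlap, and it was 4.07-fold lower in positive cells (difference -2.02 ± 0.43, limma adjusted p = 0.0117).

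The remaining Jun paralogues behaved otherwise. Junb, often an antagonist of Jun, was dim and read -3.77, -3.93 and -4.86 against -1.90, -2.52 and -3.78. The third negative sample reached the range of the positive samples, and the difference of -1.45 ± 0.48 was not called (limma adjusted p = 0.0570). Fitted with the replicate number as a block it was called (limma adjusted p = 0.00326), and each positive sample lay below its own negative partner, with differences of -1.87, -1.41 and -1.08. Its probe cleared background in 2 of the 3 positive samples. Jund, the Jun paralogue that most cells make without stimulation, read 6.00, 6.63 and 5.97 against 6.24, 6.34 and 6.22. Its groups overlapped, with a difference of -0.07 whose 95% confidence interval ran from -0.52 to 0.38.

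**Figure D2:**
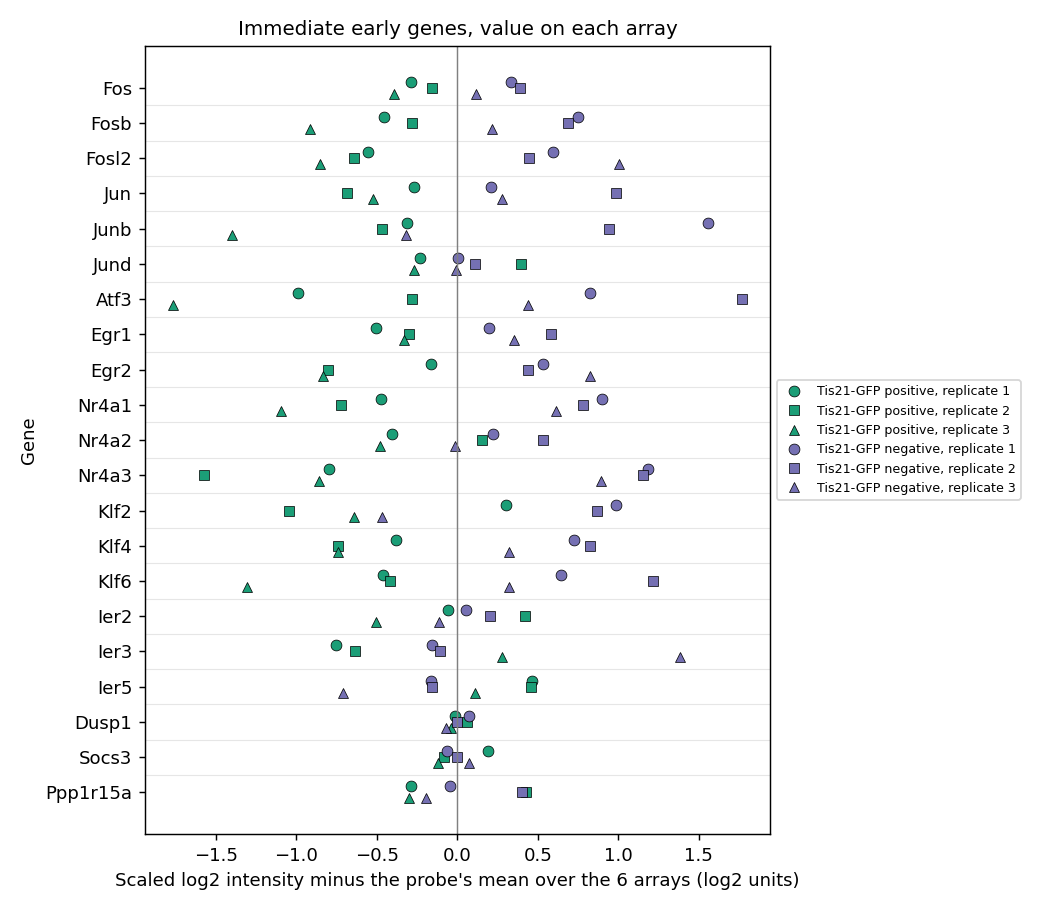
Scaled log2 intensity of the 21 tested immediate early genes (y axis) on each array, minus that probe's mean over the 6 arrays (x axis, log2 units); green symbols are Tis21-GFP positive, purple symbols negative, and the shape gives the replicate. For Nr4a3, Atf3, Nr4a1 and 8 other genes all green symbols lie left of all purple ones, for Ier5 they lie to the right, and for Dusp1 and Socs3 both colours lie within 0.2 of the mean. Egr3 and Zfp36 did not pass the filter and are not drawn.

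Of the 3 Egr genes, zinc finger factors that relay growth factor and activity signals, both that could be measured were lower. Egr1 read 3.90, 4.11 and 4.08 in positive and 4.61, 4.99 and 4.77 in negative samples. The groups were tight and separate, and Egr1 fell by 0.76 ± 0.15 (1.69-fold, limma adjusted p = 0.00838). Egr2, known for its role in hindbrain and Schwann cell development, read -2.72, -3.36 and -3.39 against -2.02, -2.11 and -1.73. It did not overlap between groups and was 2.30-fold lower (difference -1.20 ± 0.21, limma adjusted p = 0.00513). With normexp background correction in place of the scanner's, an added offset of 50 and quantile normalization, the difference was -0.36. An added offset shrinks the log2 differences of dim probes such as this one. Egr3 was not well above background on any of the 6 arrays and was not tested.

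Promoter sequence was read from RefSeq (GRCm38.p6), which held 26 of the 31 genes, and the 250 bases before each transcription start were searched on both strands. Egr1, Egr3, Ier2, Hspa8 and Hsp90aa1 had no promoter entry and were not searched. The CArG box, the site of serum response factor and a hallmark of immediate early promoters, matched in 2 of 20 immediate early promoters (Egr2 and Zfp36) and in 0 of 6 heat shock promoters, and in 1.62% of all 27025 gene symbols. Only exact matches within the 250 bases were counted, so a gene without a match may hold a site elsewhere. Egr2 is shown because it is the called gene with this match, for 1 of its 5 listed starts, at chr10:67537669-67537868 on the plus strand. The 200 bases up to the start are written 5′ to 3′ on the strand of the gene, here and for the other promoters, with the CArG box in capitals.
Egr2: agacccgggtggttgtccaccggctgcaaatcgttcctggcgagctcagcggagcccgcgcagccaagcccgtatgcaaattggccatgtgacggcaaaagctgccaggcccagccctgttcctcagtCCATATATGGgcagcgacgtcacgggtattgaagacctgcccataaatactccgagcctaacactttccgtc

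The Nr4a genes encode orphan nuclear receptors that act without a known natural ligand and so follow their own transcription. Nr4a1 read 2.06, 1.81 and 1.43 in positive and 3.43, 3.31 and 3.15 in negative samples. Every negative sample exceeded every positive one by more than 1 unit, and Nr4a1 fell by 1.53 ± 0.18 (2.88-fold, limma adjusted p = 0.00093). Nr4a3 read -5.31, -6.09 and -5.37 against -3.33, -3.36 and -3.63, without overlap between groups, and was called lower (fitted difference -2.15 ± 0.22, limma adjusted p = 0.000517). It cleared background in all 3 negative samples and in none of the positive ones, so the fold is only bounded, at least 1.74-fold lower in positive cells. By the normexp correction the Nr4a3 difference was -0.37 and still called.

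Nr4a2, which is needed for dopamine neurons and is also made by deep cortical cells, was closer between the groups. It read 2.42, 2.98 and 2.35 against 3.05, 3.36 and 2.81. The second positive sample lay above the third negative one, and the difference of -0.49 ± 0.22 was not called (limma adjusted p = 0.127), although each pair ran the same way and the block fit called it (limma adjusted p = 0.0323), as did the fit without positive replicate 2 (-0.69, limma adjusted p = 0.0417) and 4 other scalings or background corrections of the 17 alternatives. A second Nr4a2 probe gave -0.50, without overlap between groups.

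Klf factors are zinc finger regulators, of which Klf4 is best known for holding cells in an undifferentiated state. Klf4 read 1.86, 1.50 and 1.50 in positive and 2.97, 3.07 and 2.56 in negative samples. The groups did not overlap, and Klf4 fell by 1.25 ± 0.18 (2.37-fold, limma adjusted p = 0.00222). Klf6, a relative induced by injury and growth factors, read 2.90, 2.94 and 2.05 against 4.01, 4.58 and 3.68. It was lower in every positive sample, by 1.46 ± 0.30 (2.75-fold, limma adjusted p = 0.0104). Klf2, known best from endothelial cells under flow, read -0.35, -1.70 and -1.29 against 0.33, 0.22 and -1.12. The third negative sample stood with the positive ones, the difference of -0.92 ± 0.45 was not called (limma adjusted p = 0.161), and without that sample it was -1.39 and called (limma adjusted p = 0.0474).

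The Ier genes, named only for their rapid induction, moved in no common direction. Ier5, a cofactor of heat shock factor 1, was the only immediate early gene called higher. It read 1.44, 1.43 and 1.09 in positive and 0.81, 0.82 and 0.26 in negative samples. The positive samples lay above all negative ones, the difference was 0.69 ± 0.19 (1.61-fold, limma adjusted p = 0.0351), and a second probe gave 0.55. The adjusted p rose to between 0.0549 and 0.109 when positive replicate 1 or 2, or any 1 of the negative replicates, was left out. Ier3, a regulator of cell survival, read -0.66, -0.54 and 0.37 against -0.07, -0.02 and 1.48. The third replicate stood high in both groups, so the difference of -0.74 ± 0.44 was not called (limma adjusted p = 0.239) but was called with the replicate block (0.0194). Without negative replicate 3 it was -0.24. Ier2 read 0.46, 0.95 and 0.02 against 0.58, 0.73 and 0.41, the groups overlapped, and the difference was -0.10 (95% confidence interval -0.64 to 0.44).

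Among the 4 listed genes that shut the response down again, none of the 3 that could be tested was called by limma (0 at an unadjusted p under 0.05). Dusp1, a phosphatase that switches off MAP kinases, read 1.65, 1.72 and 1.63 in positive and 1.74, 1.66 and 1.59 in negative samples. All 6 samples lay within a narrow band, with a difference of 0.0022 (95% confidence interval -0.28 to 0.29). Socs3, an inhibitor of cytokine receptors, read 2.45, 2.17 and 2.13 against 2.19, 2.26 and 2.33, and its interval ran from -0.33 to 0.31. Ppp1r15a (Gadd34), which restores protein synthesis after stress, read 3.24, 3.95 and 3.22 against 3.47, 3.92 and 3.32. The second replicate was the highest of both groups, and the interval of the difference was -0.67 to 0.46. Zfp36, which speeds the decay of short-lived mRNAs, was well above background on 1 of 6 arrays, the second negative one, and was not tested. Tested relatives of Zfp36 and Dusp1 outside the list did differ. Zfp36l1 (-1.34), Zfp36l2 (-1.12) and Dusp2 (-1.03) were called lower, Dusp4 (1.03) was called higher, and Dusp6 (-0.28) was not called.

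Dusp1 and Ppp1r15a were the immediate early genes whose upstream 250 bases held the full cyclic AMP response element, TGACGTCA, found in 1.77% of all symbols and in 0 of 6 heat shock promoters. The AP-1 site, TGANTCA, which does not overlap it, matched upstream of Hspa5 alone among the 26 genes, and in 7.82% of all symbols. Both are printed because they share this element and neither was called. The element is in capitals, at chr17:26508473-26508672 (minus strand) for Dusp1 and chr7:45526269-45526468 (minus strand) for Ppp1r15a.
Dusp1: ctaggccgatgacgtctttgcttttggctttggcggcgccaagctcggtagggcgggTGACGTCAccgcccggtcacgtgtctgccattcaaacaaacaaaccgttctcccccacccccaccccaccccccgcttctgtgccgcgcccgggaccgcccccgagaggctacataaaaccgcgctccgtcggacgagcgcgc
Ppp1r15a: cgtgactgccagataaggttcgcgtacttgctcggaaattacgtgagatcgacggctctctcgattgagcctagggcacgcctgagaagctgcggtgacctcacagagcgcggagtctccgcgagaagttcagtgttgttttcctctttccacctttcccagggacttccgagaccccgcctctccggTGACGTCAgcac

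Among the heat shock genes, the inducible Hsp70 stood out as lower. Hspa1a, the chaperone that rises most with heat and other protein damage, read -1.69, -1.33 and -1.77 in positive and 0.65, 0.45 and 0.19 in negative samples. The groups lay more than 1 unit apart with little spread within either, and Hspa1a fell by 2.02 ± 0.18 (4.07-fold, limma adjusted p = 0.000303). Its call held under all 17 alternative settings tried. Hspa1a and Hspa1b are near-identical neighbouring copies, with 247 of the 250 bases upstream of their starts the same, so the signal of the Hspa1a probe may include Hspa1b RNA.

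Hspb1 (Hsp25), a small heat shock protein that binds unfolding proteins and actin, was also called lower, with less even values. It read 0.86, -0.46 and -0.65 in positive and 1.03, 1.51 and 1.46 in negative samples. The first positive sample stood near the negative ones, though still below them, and the pairs differed by -0.17, -1.97 and -2.11. The difference was -1.42 ± 0.37 (2.67-fold lower, limma adjusted p = 0.0268). Leaving out 1 sample other than the first positive one gave adjusted p values of 0.0554 (positive replicate 3), 0.0579 (negative replicate 1), 0.0806 (positive replicate 2), 0.0856 (negative replicate 3) and 0.0871 (negative replicate 2), while leaving out positive replicate 1 gave -1.89 (limma adjusted p = 0.000838).

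Heat shock factors bind inverted repeats of a short unit that holds GAA. The 2 core arrangements searched were GAANNTTC and TTCNNGAA, which read the same on both strands and can share a unit where they run into each other, and 14.5% of all symbols held at least 1 of them in the 250 upstream bases, against 4 of 6 heat shock genes (Hspa1a, Hspa1b, Hspb1 and Hsph1) and 3 of 20 immediate early genes (Fosl2, Jun and Egr2). Among the 4, Hspa1a and Hspa1b are not separate cases, since their upstream bases are nearly the same. Of the 2 called heat shock genes, both held the first arrangement, Hspb1 in 2 places, while Hsph1, which was not called, held the second. The 3 promoters are printed with these cores in capitals so that the called and uncalled genes can be set side by side. They lie at chr17:34972157-34972356 (minus strand), chr5:135887719-135887918 (plus strand) and chr5:149636337-149636536 (minus strand).
Hspa1a: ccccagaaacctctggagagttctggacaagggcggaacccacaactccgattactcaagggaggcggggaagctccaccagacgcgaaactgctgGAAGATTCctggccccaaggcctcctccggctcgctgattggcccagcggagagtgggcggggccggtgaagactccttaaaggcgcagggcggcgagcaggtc
Hspb1: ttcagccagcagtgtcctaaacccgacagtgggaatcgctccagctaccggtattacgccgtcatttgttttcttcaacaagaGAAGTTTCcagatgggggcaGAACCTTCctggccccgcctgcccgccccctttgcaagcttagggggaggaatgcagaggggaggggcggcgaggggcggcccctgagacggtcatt
Hsph1: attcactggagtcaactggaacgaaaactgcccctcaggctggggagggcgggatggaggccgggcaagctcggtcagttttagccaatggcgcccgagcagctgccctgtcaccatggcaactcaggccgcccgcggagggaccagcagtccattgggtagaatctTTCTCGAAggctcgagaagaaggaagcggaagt

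The other tested heat shock genes were not called. Hspa8, the constitutive Hsp70, was read by 3 probes that disagreed. The brightest read 8.64, 6.67 and 8.35 in positive and 7.88, 7.95 and 7.84 in negative samples, with a difference of -0.0013 (95% confidence interval -1.04 to 1.04). The second positive sample alone was low, and without it the difference was 0.61 and called higher (limma adjusted p = 0.0306). The other 2 probes showed no such dip and gave 0.36 and 0.42, without overlap between groups but not called in a fit over all probes (limma adjusted p = 0.176 and 0.0886).

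Dnajb1, the Hsp40 partner that hands clients to Hsp70 and is itself heat inducible, read 5.24, 5.42 and 5.25 in positive and 4.70, 5.11 and 4.54 in negative samples. All positive samples were above all negative ones, by 0.52 ± 0.17 on average, an order of the groups shared by 28.2% of all genes. It missed the threshold (limma adjusted p = 0.0600) and passed it with the replicate block (0.0345) or without negative replicate 2 (0.0273). Hsp90aa1, the inducible form of Hsp90, read 6.46, 6.49 and 6.37 against 5.88, 6.48 and 5.84. The second negative sample matched the positive ones, and the difference of 0.37 ± 0.19 was not called (limma adjusted p = 0.178), but was 0.58 and called without that sample (0.0353).

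Hsph1, an Hsp110 that recycles Hsp70, read 3.85, 4.42 and 3.87 against 3.84, 4.39 and 3.92. Hspa5, the Hsp70 of the endoplasmic reticulum, read 5.78, 6.02 and 5.60 against 5.68, 6.15 and 5.57. In both genes the second replicate was the highest of each group and the groups overlapped. Their 95% confidence intervals ran from -0.50 to 0.50 and from -0.44 to 0.45. Without negative replicate 2, whose values were high for Dnajb1, Hsp90aa1, Hsph1 and Hspa5, 2 heat shock genes were called higher and 1 lower.

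**Figure D3:**
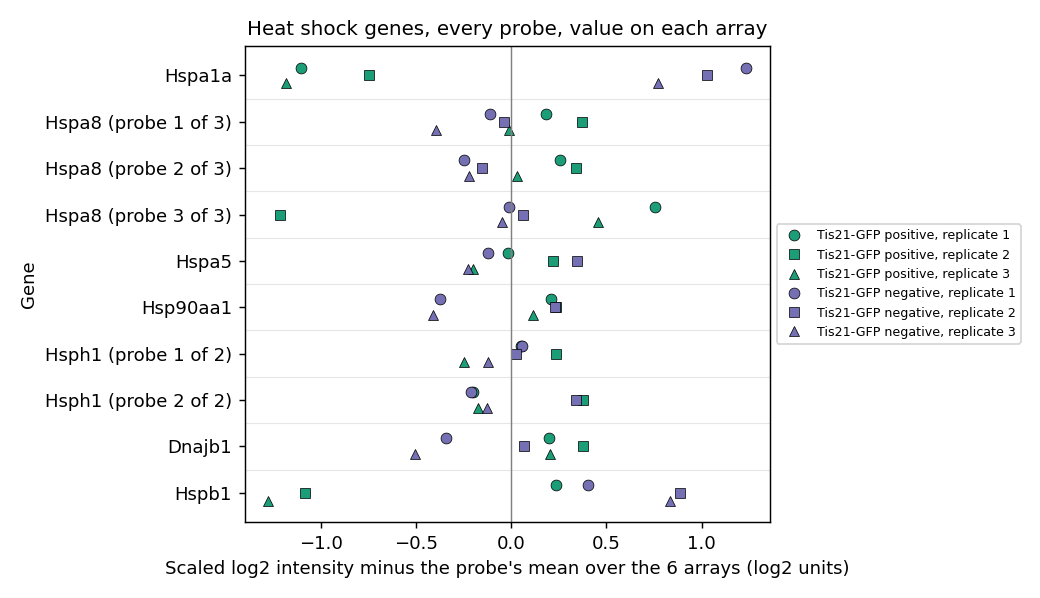
Scaled log2 intensity of every probe of the 7 heat shock genes with a probe (y axis) on each array, minus that probe's mean over the 6 arrays (x axis, log2 units); green symbols are Tis21-GFP positive, purple negative, and the shape gives the replicate. Hspa1a separates by about 2 units, the first positive sample of Hspb1 lies beside the negative ones, and the second positive sample of the brightest Hspa8 probe lies 1.22 below its mean.

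Taken by sample, the median of the 21 immediate early genes, each set against its own mean over the 6 arrays, was 0.33, 0.53 and 0.22 in the negative samples and -0.31, -0.30 and -0.53 in the positive ones. The groups did not overlap. The same median over the 7 heat shock genes was -0.12, 0.34 and -0.13 in negative and 0.20, 0.22 and -0.18 in positive samples, where they did. Scaling matters for values near 0. The median of all genes was 0.12 and ranged from -0.06 to 0.30 under the other scalings of the same intensities, and calls in the higher direction made up 49.6% of all calls, but 29.1% when only probes detected throughout set the percentile, 39.5% with the authors' values and 65.8% after centring on the median. Relative to the median of all genes, the immediate early genes lay at -1.04 and the heat shock genes at -0.12. The members were also short genes, with a median span of 3750 bases for the tested immediate early genes and 4440 for the heat shock genes against 22328.5 for all genes tested. Upstream bases were available for 20 immediate early and 6 heat shock genes, not all of them tested. Over 250 bases their median GC content was 64.8% and 62.8%, against 52.4% over all 27025 gene symbols, tested or not.

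Further lists of related genes were read in the same way. They too were chosen with earlier results of these data known, so they are not an independent second reading. Of 35 tested further immediate early genes 15 were lower, 4 higher and 16 not called, with a median of -0.52, beside 13.1% lower and 12.8% higher among all genes. Zfp36l1, a relative of Zfp36 in mRNA decay, read 3.48, 3.39 and 3.49 against 4.73, 4.90 and 4.75, far apart, and fell by 1.34 ± 0.13 (limma adjusted p = 0.000358). Bcl6, a transcriptional repressor, fell by 1.26 ± 0.14 (limma adjusted p = 0.000611). Gadd45g, a growth arrest gene that is also on the intermediate progenitor list, ran the other way, with 5.57, 5.85 and 5.84 against 3.12, 3.70 and 3.50. It was higher in every positive sample, by 2.31 ± 0.18 (limma adjusted p = 0.000219). Btg2, the reporter locus, was also among the 4 higher genes and is on the intermediate progenitor list as well.

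Of 20 genes for upstream kinases and factors, 2 were lower and 1 higher, with a median of 0.19, beside 13.1% lower and 12.8% higher among all genes. These shares are near or below those of all genes. Mrtfb, a partner of serum response factor, differed by -0.70 (limma adjusted p = 0.00728), Rps6ka1, a kinase below MAP kinases, by -0.78 (limma adjusted p = 0.0177) and Hsf2, a relative of heat shock factor 1, by 0.57 (limma adjusted p = 0.0272). Srf and Hsf1, named here for the motifs above and chosen with their values known, differed by -0.05 and 0.010 and were not called.

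Among 34 tested other cytosolic chaperones 6 were lower, 4 higher and 24 not called, with a median of 0.24, beside 13.1% lower and 12.8% higher among all genes. In 15 of the 34 the positive samples lay above all negative ones and in 6 below, beside 28.2% and 18.6% of all genes. The 3 with the smallest adjusted p were all lower. Bag3, a cofactor that links Hsp70 to small heat shock proteins, read -1.28, -1.27 and -2.05 against 0.33, 0.33 and 0.35. It fell by 1.87 ± 0.22 (limma adjusted p = 0.000817). Hspb8, the small heat shock protein that works with Bag3, fell by 1.14 ± 0.13 (limma adjusted p = 0.000855), and Bag2, an Hsp70 nucleotide exchange factor, by 0.66 ± 0.13 (limma adjusted p = 0.00826). In the endoplasmic reticulum 1 of 20 genes was called, the collagen chaperone Serpinh1, at -0.74 ± 0.15 (limma adjusted p = 0.0103). Of 8 mitochondrial chaperones 0 were called by limma (1 at an unadjusted p under 0.05), and the 2 with the strongest statistics, Grpel1 and Clpp, differed by 0.47 and 0.39. In both of these lists the share of called genes lay below that of all genes, 13.1% lower and 12.8% higher.

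Markers of microglia and of meninges were lower in the positive samples, as the called immediate early genes other than Ier5 and the called heat shock genes were. Of 16 tested microglia and macrophage markers 15 were lower, and Laptm5, P2ry12 and Fcgr3 did not clear background in any positive sample. Summed levels were taken over every gene of a list with a probe, tested or not, here 17 genes. The microglia sum was 5.58 to 5.70 in negative and 4.63 to 4.94 in positive samples. All 10 tested markers of meninges and mesenchyme were lower, and the summed level of the list was 5.27 to 5.45 against 3.63 to 4.30. Vtn, Col3a1, Lum and Pdgfra did not clear background in any positive sample, and Col1a1 and Nid1 cleared it in 1. Markers that passed the filter through the negative samples alone, here and in the microglia and endothelial lists, could be called lower more easily. Of 9 tested endothelial and pericyte markers 5 were lower, with a median of -0.93 and with Rgs5, Pdgfrb and Abcc9 below the background test in every positive sample. The summed level of this list was 3.10 to 3.28 in negative and 3.28 to 3.42 in positive samples. Kdr, which was not called, was the 1 gene of the 9 tested with a difference above 0 (0.45). Kdr alone read 2.57 to 2.94 in negative and 3.20 to 3.31 in positive samples, so that sum was mostly Kdr. In the microglia sum the largest part was Itgam, not called, with 4.66 to 5.07 against 4.30 to 4.58. In the meningeal sum it was Fn1, called lower, with 5.00 to 5.07 against 3.54 to 4.22. Markers of radial glia, the main stem cells of the cortex at this stage, had a summed level of 8.20 to 8.39 in negative and 7.21 to 7.51 in positive samples. Of cortical neuron markers 6 of 10 were higher and 2 lower, of Cajal-Retzius markers 2 of 4 were higher, and of interneuron and red blood cell markers 1 of 6 and 1 of 5 were lower. The Cajal-Retzius marker Reln ran the other way, at -1.38 without overlap between groups, but was not called (limma adjusted p = 0.0730). Trp73, at 0.24, was not called either. Among all genes tested 13.1% were called lower and 12.8% higher. The part of these cells in the differences of the immediate early and heat shock genes was not tested. In bulk RNA of this kind, fewer cells of a type and less RNA per cell cannot be told apart.

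**Figure D4:**
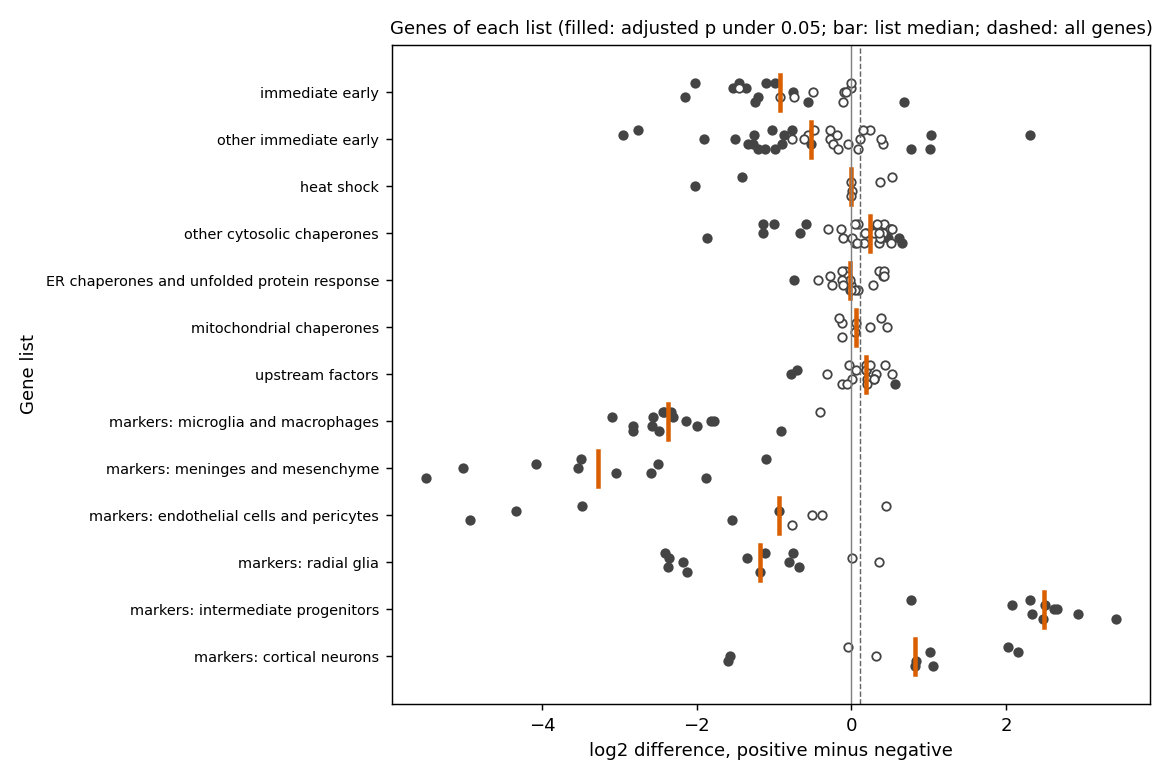
Difference of every tested gene (x axis, log2, positive minus negative) in each list (y axis), filled where the limma adjusted p was under 0.05; orange bars are list medians and the dashed line is the median of all genes tested. The medians were -0.92 for immediate early, -0.52 for other immediate early and -0.0013 for heat shock genes, beside -2.38 for microglia, -3.27 for meningeal, -1.18 for radial glia and 2.49 for intermediate progenitor markers. They use fitted differences, also of genes below background in the positive samples, where the fold is only bounded.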

How the data were processed

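RNA of sorted S-phase cells was amplified from 50 ng of total RNA and labelled with Cy3, per the labels' protocols. The submitters' processing notes name Agilent Feature Extraction 10.7.1.1 as the source of the deposited intensity values, which are corrected for background within each array per the file headers. A second table deposited by the authors is on a log2 scale, as its correlation of 0.999 or above with the scanner intensities showed. Its column medians were 4.67, so it is not centred, its normalization steps are unknown here, and it served as an alternative.

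Control and outlier spots were left out, spots of a probe were averaged, and the 75th percentile of each array was subtracted from log2 intensity. Of 55681 probes 26370 were named by accession through RefSeq GRCm38.p6. Where several probes read a gene, the brightest on average stood for it. The test was limma's (version 3.58.1 under R 4.3.3, lmFit and eBayes with group as the term), and p-values cover only the spread between these pooled samples. The number of arrays limits the precision. The procedure was tested on simulated data.

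The replicate number pairs the samples. Same-numbered samples of the 2 groups deviated together from their group means (correlations 0.23, 0.13 and 0.37, against at most 0.06 for other pairings), and the labels do not say what the number stands for. The row of the slide held replicate 1 apart from replicates 2 and 3 in both groups. All members are named, and of each other list up to 3 called genes with the smallest adjusted p, or 2 with the largest statistic where 0 were called. Some further genes, such as relatives of Zfp36 and Dusp1, are named with their values known. The members and lists were chosen with earlier results of these data known. Alternatives covered scaling, background, filters, probe choice, blocks and each replicate left out. Fitted folds of single genes below background in a group are given as bounds against the lowest well-measured signal of each array. List medians use the fitted differences.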

Additional observations from a re-analysis of the deposited data

How the results depend on the processing

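The calls of Fosb, Fosl2, Atf3, Egr2, Nr4a1, Nr4a3, Klf4, Klf6 and Hspa1a held under every alternative run on them. With centring on the array median Fos (-0.38) and Egr1 (-0.58) were no longer called, and with no filter on dim probes Fos, Ier5 and Hspb1 were not. The normexp background model was run with an offset of 50, which shrinks log2 differences of dim probes, and with quantile normalization. It was chosen after seeing the data because the planned signal column was not in the files used here. With it Egr2 was -0.36, Nr4a3 -0.37 and Junb -0.44. With the replicate block Junb, Nr4a2, Ier3 and Dnajb1 became called, and the block changed no other member's call. Nr4a2 was also called with quantile normalization (-0.68), the authors' values (-0.68), the percentile over detected probes (-0.66) and normexp (-0.69). The replicate block gave 14 immediate early genes lower and 1 higher, 2 heat shock genes lower and 1 higher, and 2017 genes higher and 1967 lower in all.

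The number of all genes called higher was 933 when only probes detected throughout set the percentile, 1123 with the authors' values and 896 with no filter, but 2347 with median centring and 2346 with the variance trend, and 761 to 1729 with 1 replicate left out. The number lower ran from 1219 with median centring to 2276 with the percentile over probes detected throughout, and from 1178 to 1705 with 1 replicate left out. The immediate early median was -1.10 with that percentile, -0.74 with median centring, -0.76 with no filter or with the filter on all 6 arrays, -0.69 with normexp, and -1.10 to -0.73 with 1 replicate left out. The number of immediate early genes called higher was 0 with that percentile, the authors' values, no filter or quantile normalization, and 0 to 1 with 1 replicate left out. The heat shock median was -0.17 with that percentile, -0.30 with the authors' values, -0.29 with quantile normalization, 0.18 with median centring, -0.23 with normexp, and -0.11 to 0.17 with 1 replicate left out. The number of heat shock genes higher was 1 with median centring, the replicate block or the variance trend, and 0 to 2 with 1 replicate left out. The number lower was 1 with no filter, and 1 to 2 with 1 replicate left out.

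Differences near 0 changed sign. Centring on the median, and the percentile over probes detected throughout, shift all genes of an array by the same amount. Relative to the median of all genes, the immediate early median stayed at -1.04 and the heat shock median at -0.12 under both. For the other settings the cause was not tested. With median centring the values were 0.18 for Hspa8 and Hsph1, 0.083 for Ier2, 0.076 for Ppp1r15a, 0.11 for Jund and 0.17 for Socs3. With only probes detected throughout setting the percentile, Dusp1 and Hspa5 were at -0.17. With the authors' values and with quantile normalization they were at -0.12 and -0.30, and with normexp at -0.057 and -0.18. The mean of a gene's probes gave 0.26 for Hspa8 and 0.013 for Hsph1. With 1 replicate left out, the values ran from -0.033 to 0.038 for Dusp1, -0.11 to 0.18 for Hspa5, -0.38 to 0.61 for Hspa8, -0.19 to 0.17 for Hsph1, -0.33 to 0.13 for Ier2, -0.29 to 0.047 for Jund, -0.11 to 0.051 for Socs3 and -0.35 to 0.070 for Ppp1r15a.

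An exact two-sided permutation test of 3 against 3 cannot go below 0.1, and 15 of the 28 genes tested reached that value. Dim probes limit Junb, Egr2, Nr4a3, Egr3 and Zfp36, whose signals lay near background.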
